A study of Drosophila melanogaster and Drosophila simulans and Drosophila yakuba with 27 samples.

Results

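The subgenus Drosophila was represented here by D. mojavensis and D. virilis, and it was set against the subgenus Sophophora, represented by 6 species. The subgenus Drosophila supplied 6 of the 27 RNA sequencing libraries and 2 of the 9 lines, and Sophophora supplied 21 libraries and 7 lines. Both species of the subgenus Drosophila were labelled wild type. The Sophophora lines were D. simulans carrying w[501], a mutation of the eye colour gene white, D. ananassae In(3R)A, wild-type D. yakuba, D. pseudoobscura and D. willistoni, and, of D. melanogaster, the strains Canton S and RAL-208. Each line gave 1 library of eye-antennal disc, 1 of wing disc and 1 of brain, dissected from wandering larvae of instar 3 reared at 25 °C. The sources used here do not give the number of animals behind a library, and no tissue of a line was repeated. Of 15439 genes in the deposited table, 9832 had a value in all 27 libraries, and 7979 of these reached a value of 1 in at least 6 libraries and were tested. Of the 10320 genes with values in all 21 Sophophora libraries, 239 had none in either species of the subgenus Drosophila and 249 had values in only 1 of them.

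The genus Drosophila is split at its base into these subgenera, and D. mojavensis and D. virilis descend from the same side of that split. Imaginal discs are the larval epithelia from which adult structures form: the wing disc gives the wing and the notum, and the eye-antennal disc gives much of the adult head. Brain and discs of this stage are under the control of the steroid ecdysone, and retinal cells differentiate behind a furrow that crosses the eye disc.

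The contrast is a single split of the species tree. Related lines share ancestry, so p-values here measure the spread between lines, and a change cannot be assigned to 1 side of the split without an outgroup. Both D. melanogaster strains entered as separate lines, although they are of the same species. Libraries are whole tissues, so fewer cells of a type and less RNA per cell cannot be told apart. The values, called signal here, are read counts divided by gene length and by a library factor, as the authors deposited them, and differences are log2 of the signal plus 1, subgenus Drosophila minus Sophophora. A gene was called when limma gave a Benjamini-Hochberg adjusted p below 0.05 over all 7979 genes.

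The libraries of the subgenus Drosophila held 3642547 to 10219960 counted reads, against 4085962 to 20473119 in Sophophora. Those of D. mojavensis were shallow, at 3642547 to 4943047 reads, and those of D. virilis held at least 9476075. Defining genes followed the labelled tissues in both species. The Pax6 gene ey was at 57.6 in the eye-antennal disc of D. mojavensis and 42.3 in that of D. virilis, against 45.1 to 75.5 in Sophophora, and in wing discs it was at 0.260 and 1.65. The wing selector vg was at 71.2 and 68.3 in the wing discs of D. mojavensis and D. virilis, against 49.1 to 123 in Sophophora. The neuronal RNA-binding gene elav was at 307 and 341 in their brains, against 99.2 to 304.

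The D. virilis eye-antennal library stood apart from the other 26. In it, 2066 tested genes (25.9%) lay beyond 2-fold of the Sophophora median of that tissue, against 1469 genes (18.4%) in the D. mojavensis eye-antennal library and 8.40% to 19.5% in the other 25 libraries. The summed signal of 25 furrow and photoreceptor genes was 937 in it and 1625 in D. mojavensis, against 1358 to 1833 in Sophophora. Within D. virilis this sum was higher in wing disc, at 943, and in brain, at 1074, than in the eye-antennal disc. In D. mojavensis it was lower in wing disc, at 1209, and in brain, at 1065. The sum of 11 retinal determination genes was 526 in D. virilis and 654 in D. mojavensis, against 621 to 917. The 13 neuroblast genes summed to 157 in D. virilis and 394 in D. mojavensis, against 217 to 482, and no tested member of these 3 lists was listed at 0 in either library. Wing patterning genes, neuronal genes and glial genes were also below all 7 Sophophora libraries in this D. virilis library, while 17 eye pigment genes were above them, at 481 against 307 to 449. The eye pigment sum was above Sophophora in the other D. virilis libraries too, at 545 against 232 to 350 in wing disc and 420 against 293 to 354 in brain. In the D. mojavensis eye-antennal library the neuronal sum, at 424, and the wing patterning sum, at 361, were just above the Sophophora highest values of 420 and 354. In wing disc the neuronal sum was 43.5 in D. mojavensis and 107 in D. virilis, against 25.3 to 94.7 in Sophophora. The part of these differences between marker sums in the results below was not tested. Counts of calls that use the eye-antennal libraries are given below also without that of D. virilis.

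**Figure D1:**
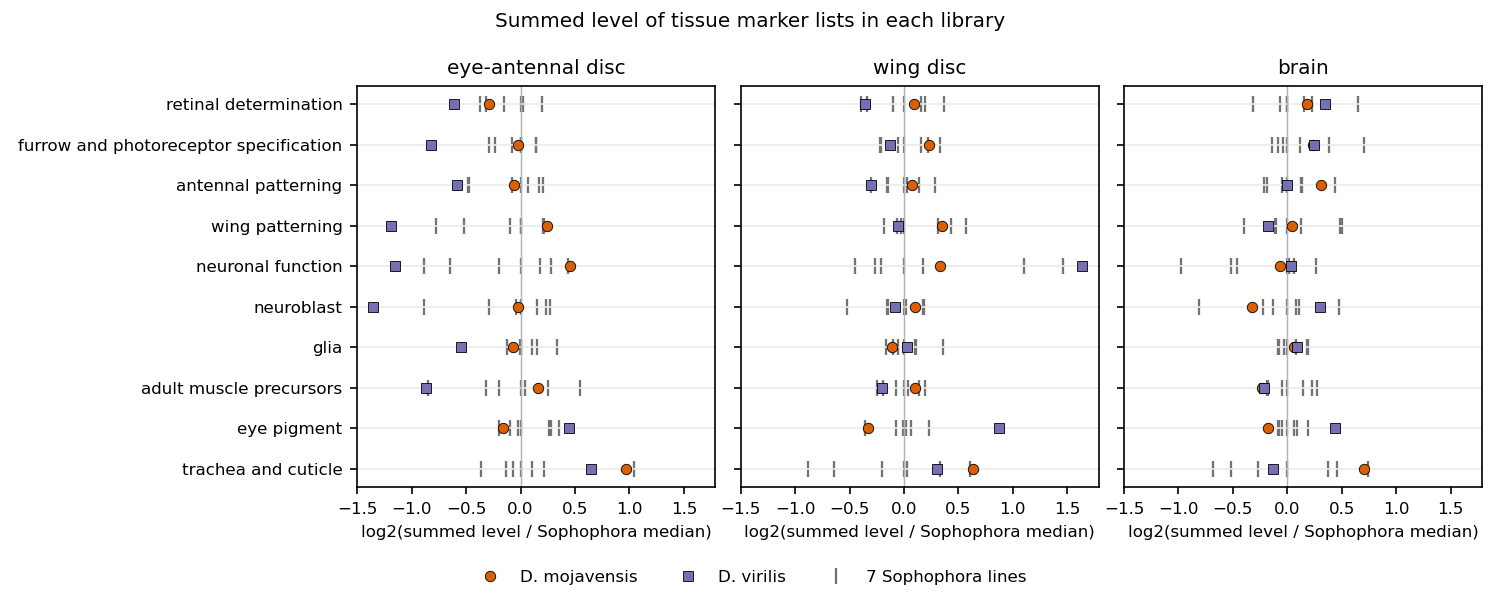
Summed signal of 10 marker lists in each library, as log2 of its ratio to the Sophophora median of that tissue, for D. mojavensis (circles), D. virilis (squares) and the 7 Sophophora lines (bars). In the eye-antennal disc D. virilis lies below the Sophophora lines in the first 8 lists and above them for eye pigment genes, while D. mojavensis lies within their range for the retinal, furrow and neuroblast lists.

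Averaged over the 3 tissues, 56 of 7979 genes (0.702%) differed between the subgenera. Of these, 42 (0.526%) were higher and 14 (0.175%) lower in the subgenus Drosophila, and 985 genes had an unadjusted p below 0.05. Beyond 2-fold, whether called or not, lay 937 genes (11.7%). The libraries of the subgenera did not overlap in any of the 3 tissues for 259 of the 7979 genes (3.25%) and for 46 of the 56 called. Leaving out 1 line gave 37 to 69 calls, lowest without Canton S, and leaving out both D. melanogaster strains gave 21. The genes changed more than the count: 26 of the 52 called without D. mojavensis and 24 of the 44 called without D. virilis were among the 56. Over wing disc and brain alone, which leaves out the eye-antennal libraries, 51 genes were called, and 47 of them were among the 56. The naming rule gave 22 genes for this comparison. With the D. melanogaster strains averaged into 1 line, 11 of the 22 kept their call, and without both strains 6 did.

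The largest difference among genes measured above 0 in every library was in CG4398 (FBgn0034126, now jtb). Its signal in the eye-antennal disc was 169 in D. mojavensis and 383 in D. virilis, against a lowest value of 3.85, a median of 6.62 and a highest value of 11.2 in Sophophora. In wing disc it was 240 and 356, against 1.66, 3.20 and 5.69. In brain it was 87.9 and 124, against 15.4, 28.0 and 41.9. The groups were apart in all 3 tissues, as the naming rule required, with the narrowest gap in brain. The log2 difference was 4.34 with a standard error (SE) of 0.28 (adjusted p = 5.9e-05, limma), and the call was kept when each of the 9 lines was left out. The length behind its values was 792 and 780 bases in D. mojavensis and D. virilis, against 504 to 726 in the 5 Sophophora species other than D. melanogaster.

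Hsp67Bc (FBgn0001229), a small heat shock protein gene, was at 812 in the eye-antennal disc of D. mojavensis and 713 in that of D. virilis, against 8.63, 68.2 and 98.9 as the lowest, median and highest in Sophophora. In wing disc it was at 626 and 751, against 1.75, 3.85 and 24.5, and in brain at 1641 and 611, against 181, 262 and 321. Every library of the subgenus Drosophila was above every Sophophora library of its tissue, as the naming rule required. The log2 difference was 4.21 (SE 0.48, adjusted p = 0.0037, limma). The length behind its values was 582 bases in both species and 579 to 600 in the 5 others. Genes of small heat shock proteins are alike in sequence, and reads could be split between copies.

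The amino acid transporter gene CG9413 (now sbm) was at 87.1, 78.2 and 102 in the eye-antennal disc, wing disc and brain of D. mojavensis and at 71.1, 43.8 and 80.5 in those of D. virilis. In Sophophora it was at 6.14 to 14.2, 0.526 to 4.19 and 29.2 to 55.3 in the same tissues. Its wing disc libraries were furthest apart. The difference was 2.89 (SE 0.29, adjusted p = 0.0019, limma). The D. mojavensis gene model was 756 bases, against 1614 in D. virilis and 1599 to 1623 in 5 Sophophora species, so its D. mojavensis signal rests on a shorter model.

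Prestin, of the SLC26 family of anion transporters, was at 31.7 to 39.6 in the 3 D. mojavensis libraries and 34.6 to 54.1 in those of D. virilis, against 4.51 to 9.58 over the 21 Sophophora libraries. The difference was 2.43 (SE 0.26, adjusted p = 0.0026, limma), with a similar gap in each tissue. CG4398, Hsp67Bc, CG9413 and Prestin were the genes, of 22 that the naming rule gave, whose calls held when each of the 9 lines was left out in turn.

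yellow-d, of the yellow family, was 3.10 higher, with 72.3 and 184 in the eye-antennal discs of D. mojavensis and D. virilis against 1.68 to 12.9 in Sophophora. CG14414 was 2.03 higher, Sgf11 of the deubiquitinase module of the SAGA chromatin complex 1.75, and CG6218 (now Nagk), an N-acetylglucosamine kinase gene, 1.74. The length behind CG14414 was 462 and 498 bases in D. mojavensis and D. virilis, against 615 to 660 in 5 Sophophora species. Its signal in both species thus rests on a shorter model. CG3803 was 1.27 higher, CG31457 1.23 and CG3065 1.14. bbc, a phosphotransferase gene of phospholipid synthesis, was 0.79 higher, at 80.6 to 84.7 in D. mojavensis and 80.6 to 88.9 in D. virilis against 39.6 to 66.4 in Sophophora. The calls of these 8 genes were lost without D. virilis and, but for CG3803, without D. mojavensis. Those of CG6218, CG31457 and bbc were kept in 1 of 9 cases in which a line was left out, that of CG3803 in 2, yellow-d in 3, Sgf11 in 4, CG3065 in 5 and CG14414 in 7. Each of the 7 Sophophora lines, when left out, ended at least 1 of these calls, and the adjusted p over the lines left out reached 0.328 for CG3803 (limma).

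**Figure D2:**
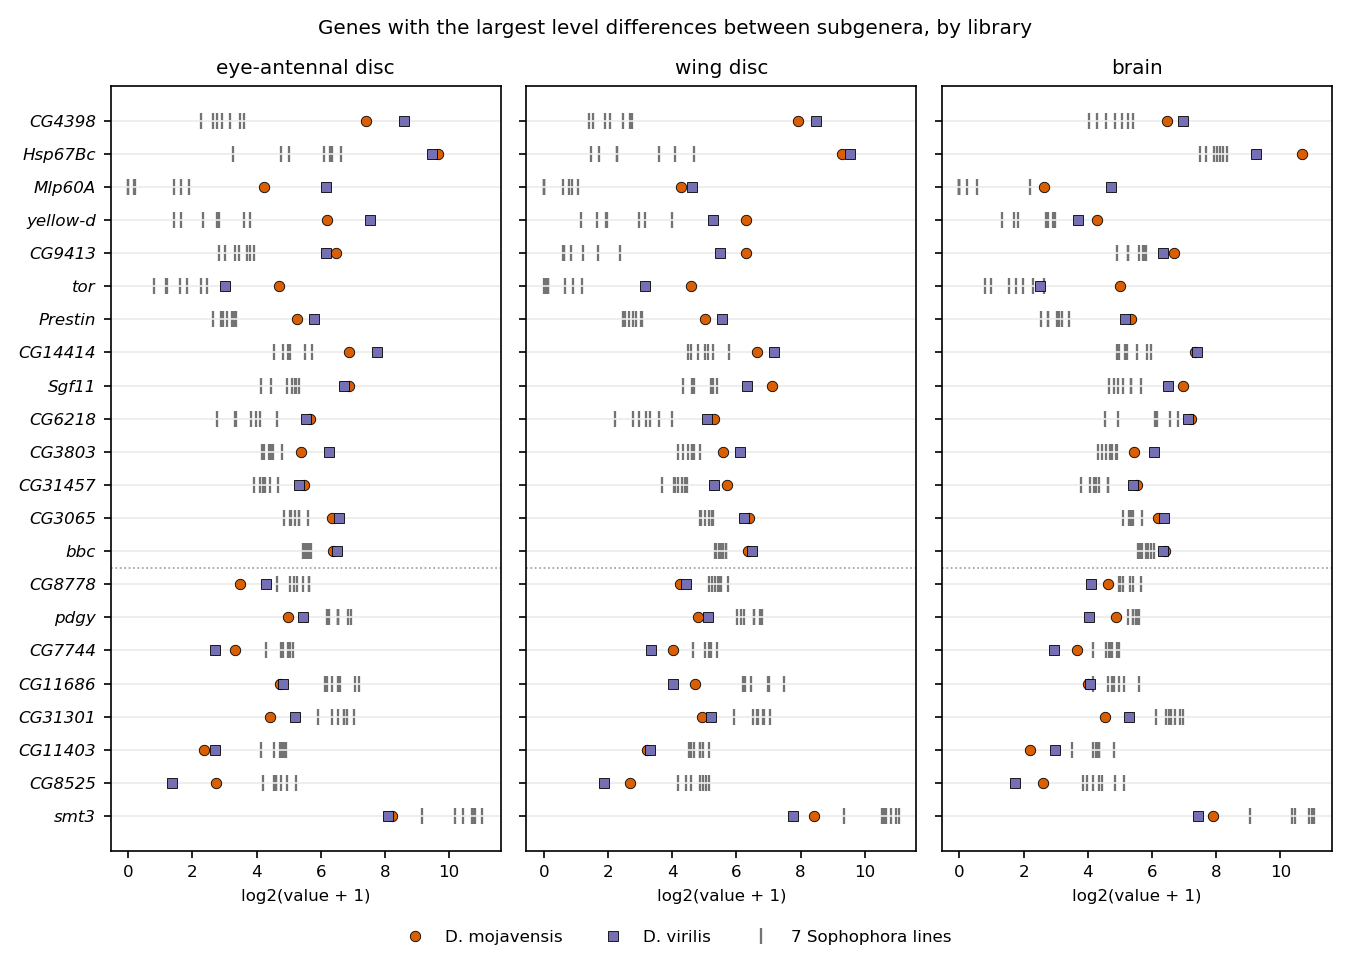
Genes named in the level comparison, as log2 of the signal plus 1 in each library, by tissue, for D. mojavensis (circles), D. virilis (squares) and the 7 Sophophora lines (bars); genes above the dotted line were higher and those below it lower in the subgenus Drosophila. The subgenera lie apart in each tissue, as the naming rule required of all these genes but tor and Mlp60A. For tor the D. virilis brain, at a signal of 4.74, lies inside the Sophophora range, and for CG11686 the subgenera nearly touch in brain.

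Lower in the subgenus Drosophila was smt3 (FBgn0026170), which codes for the protein modifier SUMO. In the eye-antennal disc it was at 299 in D. mojavensis and 273 in D. virilis, against 566, 1691 and 2101 as the lowest, median and highest in Sophophora. In wing disc it was at 341 and 218, against 655, 1637 and 2133, and in brain at 238 and 172, against 529, 1901 and 2118. The groups did not overlap, as the naming rule required. The Sophophora minimum was D. willistoni, which averaged 9.19 on the log2 scale against 10.39 to 11.05 in the other 6 lines. The difference was -2.54 (SE 0.43, adjusted p = 0.034, limma), and the call held in 1 of 9 cases in which a line was left out, the one without D. willistoni.

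CG8525 (now Dera), a deoxyribose-phosphate aldolase gene, was at 5.08 to 5.65 in D. mojavensis and 1.57 to 2.65 in D. virilis, against 13.5 to 36.3 in Sophophora, a difference of -2.45 (SE 0.34, adjusted p = 0.011, limma). pdgy, an acyl-CoA synthetase gene, was at 26.8 to 30.6 in D. mojavensis and 15.4 to 43.0 in D. virilis, against 37.1 to 123 in Sophophora, and differed by -1.27. The groups did not overlap within a tissue, as the naming rule required. CG11403 differed by -1.78, CG31301 by -1.69, CG11686 by -1.65, CG7744 by -1.54 and CG8778 by -1.09. The CG8525 call was lost without D. virilis, the CG11403 call without D. mojavensis and the pdgy call without either. The calls of CG31301, CG11686, CG7744 and CG8778 were lost without 4 to 8 of the 9 lines.

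Many of the 56 calls rested on genes near 0 on 1 side: 30 had at least 1 library listed at 0, against 1663 of all 7979 genes (20.8%). Of the 42 higher genes, 26 had a Sophophora maximum below 10 and 10 were listed at 0 in 10 or more of the 21 Sophophora libraries. The genes named in this paragraph were chosen after their values were seen. CG12027 (now ATPsynCF6L) was at 301 to 560 in the 6 libraries of the subgenus Drosophila, while 17 of 21 Sophophora libraries were listed at 0 and the highest was at 0.439. CG13829 was at 48.7 to 96.4, with a Sophophora highest value of 0.406, and CG31913 at 31.4 to 56.4, with 0.544. In the other direction, cid, the centromere-specific histone gene, was listed at 0 in all 6 libraries of the subgenus Drosophila and at 5.47 or more in Sophophora. Jupiter, of a microtubule-associated protein, was listed at 0 in 5 of the 6 libraries but at 812 in the D. mojavensis brain, against 292 to 775 in Sophophora brains. Pomp, of proteasome assembly, was at 230 in the D. mojavensis brain and at 0 to 0.274 in the other 5, against 85.9 to 295 in Sophophora. No fold is given for these genes, and whether a listed 0 is a measured 0 was not tested for them. With genes at 0 in any library left out, 18 of 6316 genes tested were called.

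Gene models also moved with the subgenus for some calls. A length in both species of the subgenus Drosophila and in the 5 Sophophora species other than D. melanogaster was recovered for 5901 tested genes. Of these, 575 (9.74%) differed in it by over 10% between the groups, against 5 of the 25 called genes with a length (20%). Restricted to genes whose length agreed within 10% over the 7 species other than D. melanogaster, 5 of 2803 genes tested were called. D. melanogaster values were scaled by exonic length, and its strains were in neither comparison of length. In the other species the lengths were nearly all multiples of 3, as coding lengths are, except in D. pseudoobscura, where 91.3% were, so part of its values rest on other lengths. The part of gene length in the calls was not tested further.

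Within single tissues, 295 genes (3.7%) were called in the eye-antennal disc, with 156 (1.96%) higher and 139 (1.74%) lower. In wing disc 186 (2.33%) were called, with 103 (1.29%) higher and 83 (1.04%) lower, and in brain 73 (0.915%), with 39 (0.489%) higher and 34 (0.426%) lower. Of the 56 genes called on average, 48 were called in the eye-antennal disc, 48 in wing disc and 31 in brain, and 30 in all 3. Over all genes, 55 were called in all 3 tissues in 1 direction and 0 in opposite directions. The line was a random block in these fits, while the 56 came from a fit on line averages, so these counts come from unlike fits. With line as a random block the averaged comparison gave more calls than 56. Brain libraries fitted alone gave fewer than 73, and the last section holds both counts. Without the D. virilis eye-antennal library 139 genes were called in that disc, 111 of them among the 295, and without that of D. mojavensis 673. Without D. virilis the eye-antennal count was 118 and without D. mojavensis 527, and in wing disc the counts were 110 and 106. Over the 7 Sophophora lines left out in turn, the counts were 144 to 422 in the eye-antennal disc, 99 to 254 in wing disc and 38 to 131 in brain, lowest without Canton S in each tissue.

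The 37 lists of genes for tissue identity, signalling, metabolism and other cell types held 593 different tested genes. On average over tissues, 3 of them were called, against 0.702% of all genes. They were Hsp67Bc, the PTTH receptor tyrosine kinase gene tor and the muscle LIM protein gene Mlp60A. tor was at 25.1, 23.2 and 31.1 in the eye-antennal disc, wing disc and brain of D. mojavensis and at 7.07, 7.93 and 4.74 in those of D. virilis, against highest values of 4.46, 1.30 and 5.28 in Sophophora. D. virilis brain overlapped Sophophora. The length behind tor was 5088 bases in D. mojavensis, against 2790 in D. virilis and 2673 to 2811 in 4 Sophophora species. Mlp60A was at 5.15 to 18.3 in D. mojavensis and 23.7 to 70.4 in D. virilis, against 0 to 3.55, and rested on 8 to 191 reads. The length behind Mlp60A was 279 bases in both species and 2138 exonic bases in D. melanogaster. No length was recovered for it in the other Sophophora species. The call of tor was lost without D. mojavensis, RAL-208, Canton S, D. simulans, D. yakuba or D. ananassae, and that of Mlp60A without D. virilis.

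Retinal, wing, antennal and neuronal lists had no member called on average over tissues. Their median differences were -0.24 for 11 retinal determination genes, -0.28 for 25 furrow and photoreceptor genes, -0.18 for 16 wing patterning genes and -0.14 for 11 neuronal genes, beside 0.00 over all genes. In the eye-antennal disc, 3 of 25 furrow genes and 1 of 13 neuroblast genes lay above 0, with medians of -0.43 and -0.52. Called lower there were the cell cycle phosphatase gene stg, the EGFR pathway gene S and the Dpp target repressor brk. stg was at 110 in D. mojavensis and 74.7 in D. virilis, against 146 to 262 in Sophophora, with a difference of -0.998 (SE 0.28, adjusted p = 0.043, limma). S, which codes for Star, a protein that helps the ligand spitz to be secreted, was at 30.2 and 16.6, against 44.4 to 69.0. The Wnt co-receptor gene arr was called lower in both discs, at 51.9 and 35.8 in the wing discs of D. mojavensis and D. virilis against 89.2 to 127. For brk and arr the D. mojavensis eye-antennal library, at 39.4 and 48.5, lay inside the Sophophora range. The eye-antennal calls of stg, S, brk and arr were lost without the D. virilis eye-antennal library, with differences of -0.75, -0.83, -0.72 and -0.90 (adjusted p of 0.141 to 0.298, limma). Of the 593 list genes tested, 15 were called in this disc, against 3.7% of all genes. Of the 15, Mlp60A kept its call without that library, 13 kept it without that of D. mojavensis and 5 without both D. melanogaster strains. The sums of the furrow, retinal and neuroblast lists, given above, were below Sophophora in the D. virilis eye-antennal library. In that of D. mojavensis these sums were inside the Sophophora range, while stg and S were below it. A link between the sums and these genes was not tested.

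Metabolic lists lay on the other side. All 11 tested glycolysis genes had a difference above 0 on average, with a median of 0.57, and 1 of them was called in 1 tissue, the wing disc, where 1.29% of all genes were called higher. Pfk, of phosphofructokinase, was at 107 and 161 in the wing discs of D. mojavensis and D. virilis, against 47.3 to 108 in Sophophora, with a difference of 1.13 (SE 0.27, adjusted p = 0.023, limma). The enolase gene Eno was at 710 and 820 in the eye-antennal disc, against 35.7 to 483, with a difference of 1.88 on average that did not pass (adjusted p = 0.379, limma). Of 63 cytoplasmic ribosomal protein genes, 51 lay above 0 on average and 0 were called, with a median of 0.27. Among libraries of the subgenus Drosophila, only the D. virilis eye-antennal library had a sum of these genes outside the Sophophora range of its tissue. Of 62 mitochondrial ribosomal protein genes, 35 lay above 0 on average, with a median of 0.08, beside 4012 of all 7979 genes above 0. Among them mRpS25 was called higher in each tissue. In D. mojavensis it was at 78.3, 69.5 and 90.8 in the eye-antennal disc, wing disc and brain, and in D. virilis at 199, 156 and 127, against at most 57.5, 62.9 and 57.5 in Sophophora. Its eye-antennal difference missed the threshold without the D. virilis eye-antennal library (1.30, adjusted p = 0.0508, limma).

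In the chaperone list, 16 genes had a median of 0.29 on average and 0.71 in the eye-antennal disc. There Hsp22, another small heat shock protein gene, was at 117 and 213, against 0 to 22.4, and was called by a narrow margin (difference 4.93, SE 1.41, adjusted p = 0.0497, limma). The mitochondrial chaperone gene Hsc70-5 was at 160 and 267 in that disc, against 97.2 to 144, with a difference of 0.79. Both calls were lost without the D. virilis eye-antennal library, at 5.26 and 0.60 (adjusted p = 0.122 and 0.119, limma). The gene lists of ecdysone response (median 0.45, 15 genes) and detoxification (median -0.49, 17 genes) had 0 members called on average over tissues. In the detoxification list CG1681 was called lower in both discs, at 11.4 and 1.01 in the eye-antennal disc against 12.1 to 70.8, and there the call was lost without the D. virilis eye-antennal library (-2.35, adjusted p = 0.0899, limma).

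Markers of cells that could be carried along in dissection varied between libraries. The 5 tested hemocyte genes, which mark blood cells, had a median difference of -1.32, the lowest of the lists, and 0 were called. Their sum in the eye-antennal disc was 40.0 in D. mojavensis and 43.4 in D. virilis, against 48.8 to 127 in Sophophora. The blood cell receptor gene nimC1 was at 0.539 and 0.692, against 0.323 to 24.8. Fat body genes spread widely, with a sum in the eye-antennal disc of 6603 in D. mojavensis and 1015 in D. virilis, against 133 to 11735, and muscle genes had sums of 269 and 272, against 168 to 1423. The part of these cells in the differences was not tested.

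**Figure D3:**
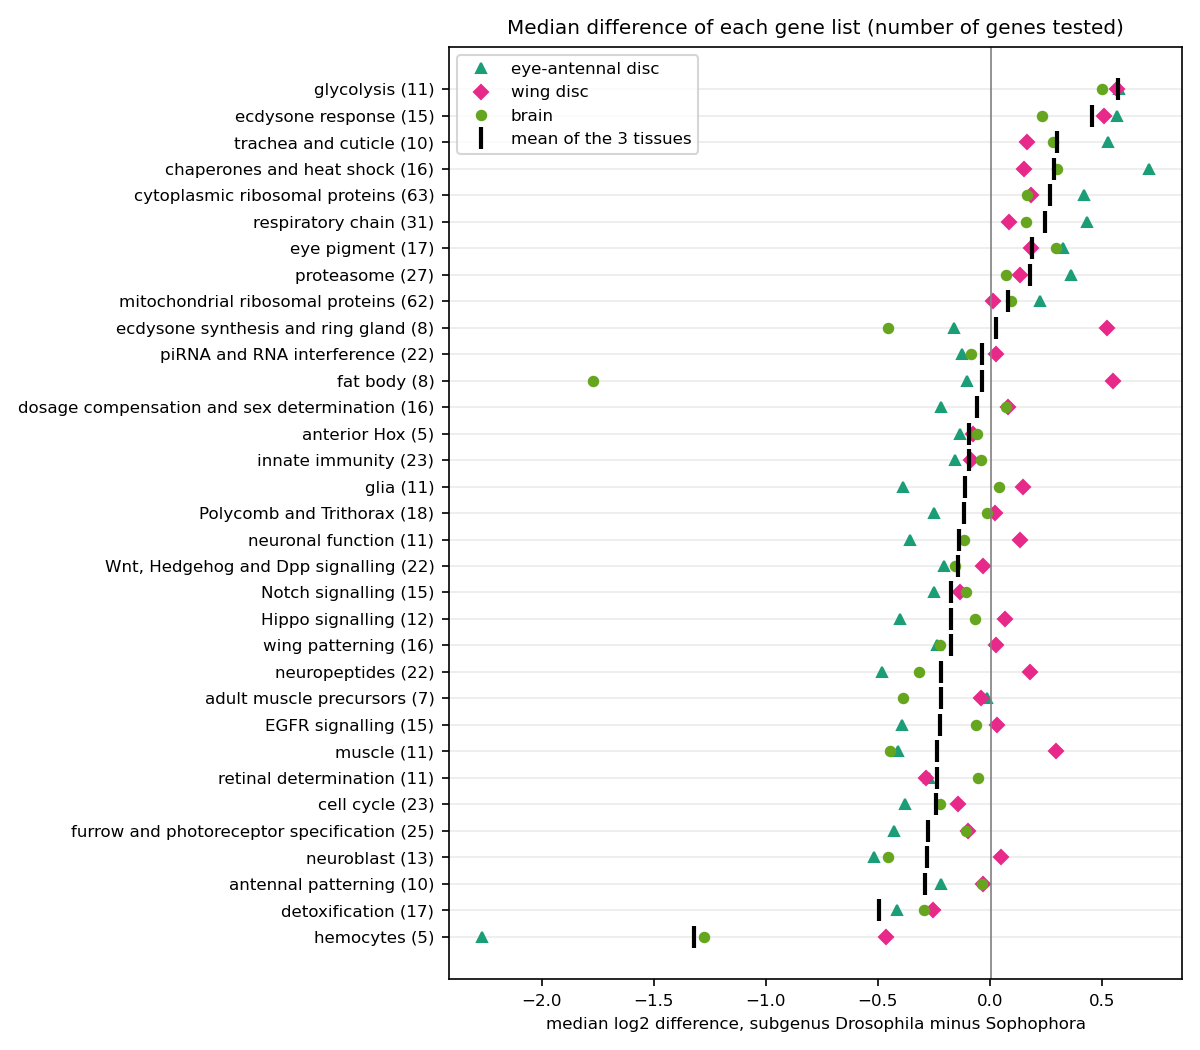
Median log2 difference, subgenus Drosophila minus Sophophora, of the 33 lists with at least 5 tested genes, in the eye-antennal disc, wing disc and brain and averaged over the 3 tissues (black bars), with the number of genes tested in parentheses. On average glycolysis genes are highest at 0.57 and hemocyte genes lowest at -1.32.

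The second question was whether the differences between tissues differ between the subgenera. With line as a block, which removes level differences between species, 9 genes (0.113%) were called for eye-antennal minus wing disc, 50 (0.627%) for eye-antennal disc minus brain and 28 (0.351%) for wing disc minus brain, and 58 (0.727%) by the test over all tissues. The calls were 7 higher (0.0877%) and 2 lower (0.0251%), 29 higher (0.363%) and 21 lower (0.263%), and 13 higher (0.163%) and 15 lower (0.188%) in these 3 pairs of tissues. Both species lay outside the range of the 7 Sophophora lines for 962 (12.1%), 911 (11.4%) and 721 genes (9.04%), whether called or not. Leaving out a D. virilis or D. mojavensis library leaves 1 library of the subgenus Drosophila in that tissue, which the fit assumes to vary like the Sophophora lines. Without the D. virilis eye-antennal library they were 14, 7 and 43, and without that of D. mojavensis they were 797, 916 and 43. Without D. virilis they were 21, 19 and 52, and without D. mojavensis 576, 927 and 20. Over the 7 Sophophora lines left out in turn they were 3 to 18, 8 to 77 and 13 to 49, and without both D. melanogaster strains 1, 3 and 4.

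CG4398 was higher in wing disc than in brain in D. mojavensis and D. virilis, with log2 differences of 1.44 and 1.51, and lower in wing disc in the 7 Sophophora lines, at -4.01 to -1.37. The difference between subgenera was 4.15 (SE 0.53, adjusted p = 0.0013, limma). CG9413 differed by 3.71 (SE 0.46, adjusted p = 0.0013, limma) in the same comparison. Its wing minus brain value was -0.38 in D. mojavensis and -0.86 in D. virilis, against -5.12 to -3.22 in Sophophora. The calls of CG4398 and CG9413 in this comparison held when each line was left out.

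Hsp67Bc differed by 4.57 for wing disc minus brain, with -1.39 in D. mojavensis and 0.30 in D. virilis, against -6.77 to -2.84 in Sophophora. This call was lost without D. mojavensis, D. virilis or D. yakuba (adjusted p of up to 0.174, limma). The tetraspanin gene Tsp42Ek was higher in wing disc than in brain by 3.10 and 3.35 in D. mojavensis and D. virilis, against -2.23 to 1.76 in Sophophora. In the D. mojavensis brain Tsp42Ek rested on 4 reads, and CG30148 and CG7227, given below, on 2 each. In the D. virilis brain these genes had 116, 27 and 18 reads. The Tsp42Ek call was kept in 2 of 9 cases in which a line was left out, without Canton S and without D. pseudoobscura. CG30148 differed by 4.47, with the call lost without D. mojavensis or D. virilis, and CG8248 by 2.62, with the call lost without D. mojavensis. CG14787 differed by 4.05 and CG7227 by 2.55. Both kept the call in 4 of 9 cases, and CG7227 fell short without D. virilis, at 1.33 (adjusted p of up to 0.206 for CG7227, limma).

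Among genes that differed the other way in the same comparison, chp, which codes for chaoptin, an adhesion protein of photoreceptors, was at 0.231 and 0.970 in the wing discs of D. mojavensis and D. virilis, against at least 2.52 in Sophophora. In brain it was at 31.1 and 14.1, against 2.96 to 17.2, and in the eye-antennal disc at 222 and 102, against 6.69 to 146. The subgenera differed by -3.50 for wing disc minus brain and by 3.90 for eye-antennal minus wing disc (SE 0.63 each). The groups did not overlap in wing disc and overlapped in brain and in the eye-antennal disc. In wing disc the chp values rested on 4 reads in D. mojavensis and 40 in D. virilis. Pkg21D, a cGMP-dependent protein kinase gene, was at 6.54 and 42.9 in brain, against 0.128 to 3.59, and differed by -2.89. In wing disc Pkg21D had 0 reads in D. mojavensis and 45 in D. virilis. The alpha-tubulin gene alphaTub67C was at 9.71 and 15.1 in brain, against 0.386 to 1.18, and differed by -1.79. The wing minus brain call of chp was lost without D. mojavensis, D. simulans or D. ananassae, that of alphaTub67C without D. mojavensis, RAL-208 or D. ananassae, and that of Pkg21D without both species of the subgenus Drosophila in turn, both D. melanogaster strains in turn and D. yakuba. CG8420 differed by -2.69, and by -1.67 without D. mojavensis, with the call kept in 2 of 9 cases. CG10581 differed by -2.34, CG18547 by -1.79, l(3)neo38 by -1.68 and ome by -1.63. The wing disc values of CG10581 rested on 4 reads in D. mojavensis and 8 in D. virilis. The calls of CG10581, l(3)neo38 and ome were kept in 6 of 9 cases and that of CG18547 in 3.

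For eye-antennal minus wing disc, CG8420 was called in each of 9 cases in which a line was left out. It was at 121 and 14.6 in the eye-antennal disc of D. mojavensis and D. virilis, against 7.57 to 36.4, and at 1.86 and 1.20 in wing disc, against 6.37 to 24.9. The difference was 4.15 (SE 0.54, adjusted p = 0.0025, limma). Cyp18a1, of the cytochrome that inactivates ecdysteroids, was at 18.4 and 2.80 in the eye-antennal disc, against 0.474 to 2.64, and at 0.862 and 0.475 in wing disc, against 1.84 to 3.43. Its difference was 2.89 (SE 0.48), and the call was lost without RAL-208 or D. ananassae. It differed by 1.88 without D. mojavensis. The wing disc values of Cyp18a1 rested on 6 reads in D. mojavensis and 8 in D. virilis. CG15239 differed by 2.26 and CG34247 by -6.66. In the same 2 species CG15239 had 4 and 30 reads in wing disc, and CG34247 had 11 and 2 in the eye-antennal disc. Adam (now eIF3j), of a translation initiation factor, differed by 0.75, but D. mojavensis was at only 1.77 to 4.97 in the 3 tissues, against 127 to 235 in D. virilis and 104 to 172 in Sophophora. CG34247 lost its call without the D. virilis eye-antennal library, while CG8420, chp, Cyp18a1, CG15239 and Adam kept theirs. With lines left out, the calls in this comparison were lost for CG15239 without RAL-208, Canton S, D. yakuba or D. ananassae, for Adam without RAL-208, Canton S or D. ananassae, for CG34247 without D. virilis, RAL-208, Canton S or D. pseudoobscura, and for chp without D. ananassae.

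CG12123 gave the smallest adjusted p among the named interaction genes, with a difference of -5.07 for eye-antennal minus wing disc (SE 0.23, adjusted p = 2.9e-10, limma) and of -5.05 for eye-antennal disc minus brain. The table listed it at 0 in the eye-antennal discs of both species, against 13.1 to 31.5 in Sophophora. Its wing disc values were 28.9 and 38.2, and its brain values 39.3 and 29.6. The deposited count files hold, in each species, 1 entry with the same ratio of wing disc to brain as the table. That entry had 100 reads in the D. mojavensis eye-antennal disc and 281 in that of D. virilis, which correspond to values of 40.3 and 43.0. Taken at these values, the eye-antennal disc of both species was above the Sophophora range, while both calls rest on the listed 0.

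For eye-antennal disc minus brain, the Toll pathway recognition gene PGRP-SA differed by 2.60 (SE 0.48, adjusted p = 0.023, limma). It was at 19.2 and 43.5 in the eye-antennal discs of D. mojavensis and D. virilis, against 1.97 to 11.3, and at 1.44 and 3.38 in brain, against 0.933 to 5.64. These brain values of PGRP-SA rested on 5 reads in D. mojavensis and 21 in D. virilis. The dystrophin gene Dys differed by -1.28 and was at 55.3 and 80.3 in brain, against 17.6 to 44.4. Its difference was -0.72 without D. virilis and -1.84 without D. mojavensis, and the call was lost without D. virilis or Canton S (adjusted p of up to 0.335, limma). The actin gene Act42A differed by -1.19 and was at 423 and 579 in the eye-antennal disc, against 773 to 1273. CG3699 differed by 3.41, CG13627 by 2.45, CG8248 by 1.77, TbCMF46 by 1.61 and CG17919 by 1.59, while CG9331 differed by -3.29, ome by -1.98, CG34347 by -1.72, CG18547 by -1.58 and alphaTub67C by -1.54. In the brains of D. mojavensis and D. virilis CG3699 had 2 and 8 reads, and CG17919 had 4 and 22. With 1 line left out, the calls of PGRP-SA, Act42A, CG34347 and ome were kept in 8 of 9 cases, that of CG3699 in 7, CG8248 in 6, CG13627, TbCMF46 and CG17919 in 4, CG18547 in 3 and alphaTub67C in 2. Of the 16 genes named by the rule in this comparison, CG12123 and CG9331 were the 2 that kept their call without the D. virilis eye-antennal library. CG12123 rests on a listed 0, and the CG9331 call was lost without each of the 7 Sophophora lines in turn and without the D. mojavensis eye-antennal library.

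**Figure D4:**
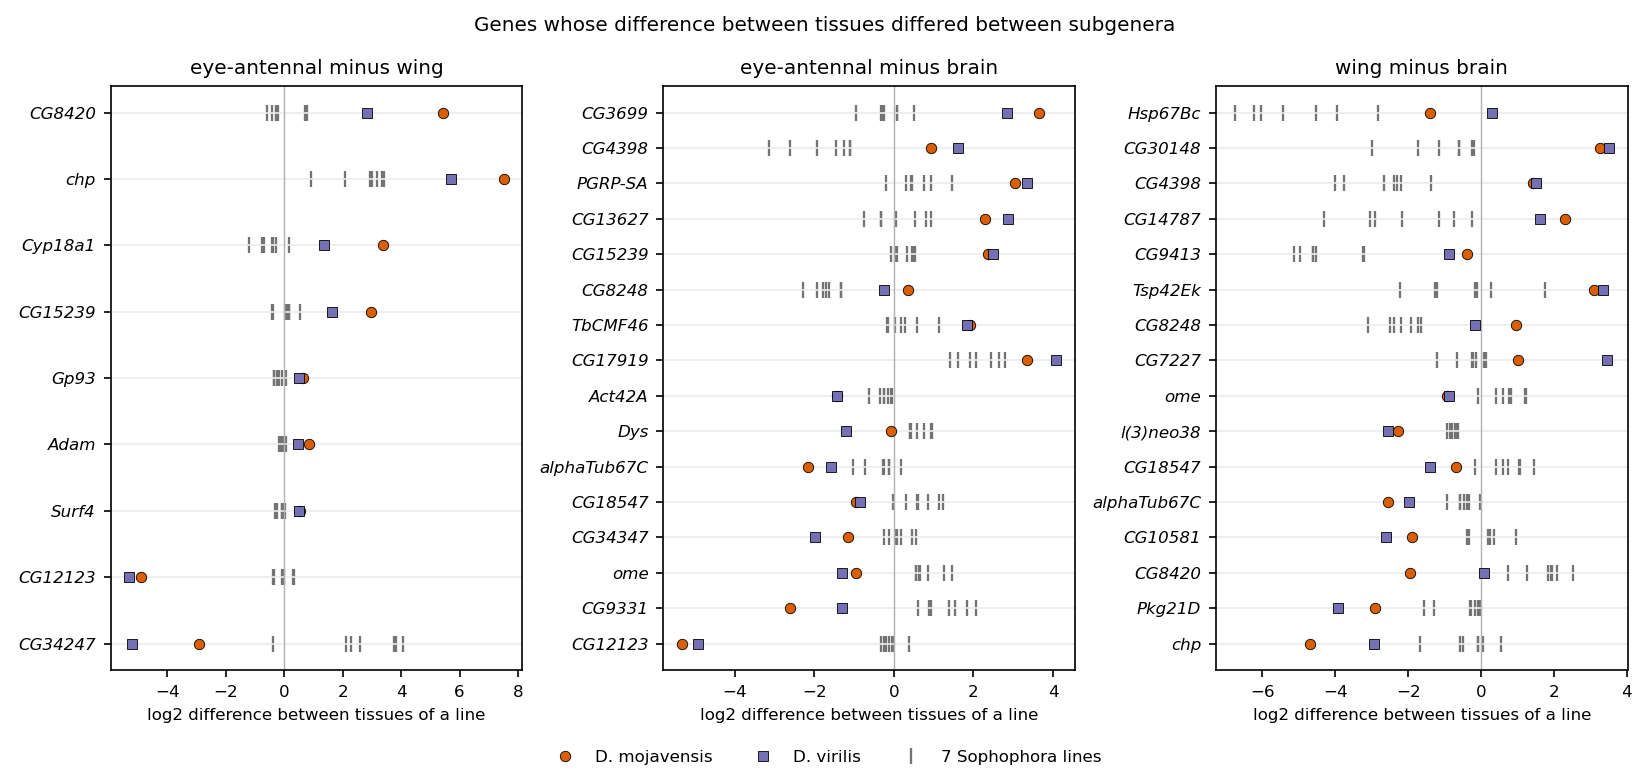
Log2 difference between 2 tissues within each line, for the named genes of the 3 tissue pairs, in D. mojavensis (circles), D. virilis (squares) and the 7 Sophophora lines (bars). Both species lie outside the Sophophora range for each gene, as the naming rule required, and CG4398 has wing minus brain values of 1.44 and 1.51 against -4.01 to -1.37.

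Genes of the secretory pathway made up part of the eye-antennal disc minus brain calls. The 8 lists used for this were chosen after the values were seen, so their counts are a description. They cover the signal recognition particle, the translocon, the oligosaccharyltransferase, signal peptidase, folding in the endoplasmic reticulum, COPII and COPI transport and the unfolded protein response. Of 75 genes listed, 64 were tested, and 9 (14.1%) were called higher and 0 lower, against 0.363% of all genes called higher. The median difference was 0.50, beside 0.00 over all genes, and 57 of 64 lay above 0. For eye-antennal minus wing disc, 2 (3.12%) were called higher, against 0.0877% of all genes, and the median was 0.42, beside -0.07 over all genes. For wing disc minus brain, 0 were called and the median was 0.08, beside 0.06. Within the eye-antennal disc, 11 of 64 (17.2%) were called higher, against 1.96% of all genes, with a median of 0.51, and within wing disc and brain 0 were called, with medians of 0.20 and 0.04.

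Both species of the subgenus Drosophila showed the pattern. The median eye-antennal minus brain difference of the 64 genes within a line was 0.69 in D. mojavensis and 0.89 in D. virilis, against 0.05 to 0.54 in the 7 Sophophora lines. For 36 of 64 genes (56.2%), both species lay above all 7 Sophophora lines, against 6.24% of all genes. Without the D. virilis eye-antennal library 1 of 64 (1.56%) was called higher, against 0.0376% of all genes, at a median of 0.39. Without that of D. mojavensis 25 (39.1%) were, against 3.78% of all genes, at a median of 0.54. Without both D. melanogaster strains 1 was, against 0.0251% of all genes, at a median of 0.47. With single Sophophora lines left out the count was lowest without Canton S, at 2 against 0.0627% of all genes, and highest without D. pseudoobscura, at 15 against 0.664%. Within the eye-antennal disc 2 of 64 were called higher without the D. virilis library, against 0.815% of all genes, and 16 without that of D. mojavensis, against 2.86%. That count was 3 without both D. melanogaster strains, against 0.714% of all genes. With Sophophora lines left out in turn it was lowest without RAL-208, at 6 against 1.12% of all genes, and highest without D. pseudoobscura, at 17 against 2.79%. Other lists lay on the same side in this comparison: all 27 proteasome genes and all 31 respiratory chain genes had an eye-antennal minus brain difference above 0, with medians of 0.26 and 0.21 and 0 called. Their medians within a line were -0.07 and -0.06 in D. mojavensis, inside the Sophophora ranges of -0.23 to 0.16 and -0.27 to 0.15. In D. virilis they were 0.40 and 0.44, above those ranges. Both species lay above all 7 Sophophora lines for 1 gene of each list.

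Surf4, which codes for a receptor for cargo leaving the endoplasmic reticulum, was at 253 and 286 in the eye-antennal discs of D. mojavensis and D. virilis, against 127, 148 and 172 as the lowest, median and highest in Sophophora. In wing disc it was at 173 and 201, against 135 to 185, and in brain at 112 and 131, against 105 to 115. The groups were apart in the eye-antennal disc and overlapped in the other tissues. Its eye-antennal minus brain difference was 0.70 (SE 0.11, adjusted p = 0.0070, limma). Gp93, of the endoplasmic reticulum chaperone of the Hsp90 family, was at 728 and 795 in the eye-antennal disc, against 343 to 576, and at 318 and 335 in brain, against 342 to 445. It differed by 1.04 (SE 0.13, adjusted p = 0.0010, limma). For eye-antennal minus wing disc Gp93 and Surf4 were the 2 called, and both calls were lost without the D. virilis eye-antennal library. With lines left out in turn, both were lost without D. virilis, RAL-208, Canton S, D. yakuba or D. ananassae.

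Manf, of a factor secreted under endoplasmic reticulum stress, was at 317 and 391 in the eye-antennal disc, against 117 to 224, and differed by 0.94. The signal peptidase genes Spase22-23 and Spase12 differed by 0.85 and 0.95, the signal recognition particle gene Srp14 by 0.91, CG5885 and Trp1 of the translocon list by 0.90 and 0.67, and CG9911, of the folding enzyme ERp44, by 0.73. Sec61alpha, the channel subunit of the translocon, was at 704 and 924 in the eye-antennal disc, against 382 to 468, and was called within that disc with a difference of 0.91 (SE 0.21, adjusted p = 0.014, limma). Sec61alpha lost this call without the D. virilis eye-antennal library (0.75, adjusted p = 0.118, limma), and Surf4 and Manf were the 2 that kept theirs within the disc. By step, medians of the eye-antennal minus brain difference were 0.90 for 8 translocon genes, 0.85 for 3 signal peptidase genes, 0.60 for 12 folding genes, 0.55 for 7 signal recognition particle genes and 0.51 for 5 oligosaccharyltransferase genes, of which 0 were called. They were 0.42 for 13 genes of COPII and cargo exit, 0.39 for 7 of COPI, and 0.17 for 9 of the unfolded protein response and degradation. The p24 genes eca and p24-2 had the same values in D. mojavensis and D. virilis, so these 2 entries may stand for 1 gene there.

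**Figure D5:**
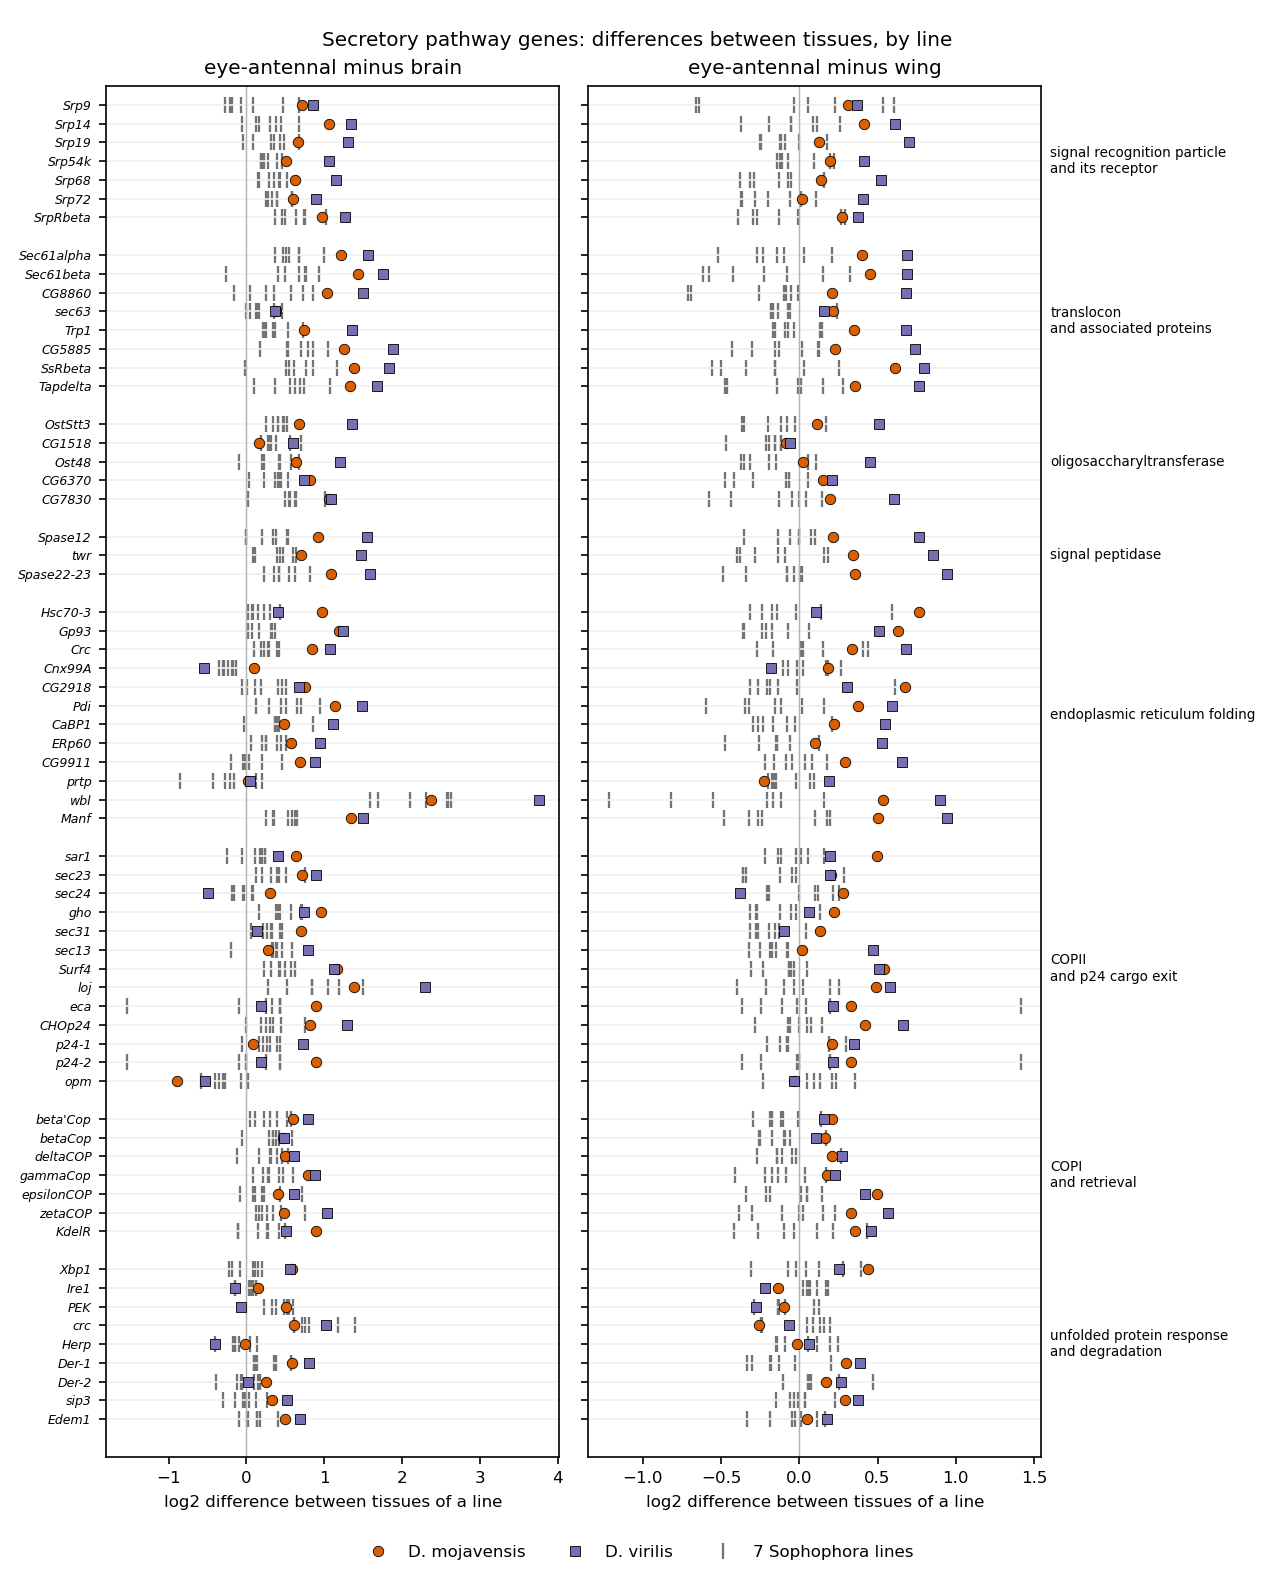
Log2 difference between 2 tissues within each line for the 64 secretory pathway genes, grouped by step, in D. mojavensis (circles), D. virilis (squares) and the 7 Sophophora lines (bars). The median eye-antennal minus brain difference is 0.69 in D. mojavensis and 0.89 in D. virilis, against 0.05 to 0.54 in Sophophora, and the unfolded protein response genes are less far apart, with a median difference of 0.17 between subgenera.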

How the data were processed

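RNA of 27 libraries (9 lines, 3 tissues) was extracted with a column micro kit and sequenced after TruSeq preparation, per the labels' protocols. Reads were aligned with TopHat2 2.0 and counted with HTSeq, per the submitters' processing notes. Genome builds were not given in the sources used here. Deposited count tables hold reads per gene of each species. The authors' deposited table of the series holds a length-normalized signal for 15439 D. melanogaster genes and their orthologs. Comparing its steps with the counts showed that a value is a count divided by gene length and by a library factor, with exonic length in D. melanogaster. Lengths elsewhere were nearly all multiples of 3, as coding lengths are, but in D. pseudoobscura 91.3% were.

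Genes with 27 values, of which at least 6 reached 1, were tested on log2(signal + 1). A fold on this scale understates the change of low genes. For the level, the 3 libraries of a line were averaged and 2 lines were compared with 7 with limma 3.58.1 in R 4.3.3 (trend, 7 residual degrees of freedom). Interactions used line as a replicate block (14 residual degrees of freedom), and tissues were compared with line as a random block. P-values were adjusted by Benjamini-Hochberg over 7979 genes. The 3 libraries with the same line label come from the same line, and their deviations correlated at 0.565 to 0.845. Of 351 pairs of libraries, 0 were identical. edgeR 4.0.16 was an alternative on reads recovered from the counts.

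The genes, lists and tests were chosen with earlier results of these data known. Genes were named by rule. For the level these were the 15 largest differences in each direction among called genes that were separated in every tissue, above 0 in every library and at a mean of at least 10 in the higher subgenus. For each tissue pair they were the 8 largest in each direction among called genes with both species outside the Sophophora range and a mean of at least 10 in 1 tissue. Called members of the lists were added, at most 4 per list for the level and 2 per interaction. Members called within a single tissue, marker genes, genes near 0 and the secretory lists were chosen after their values were seen. Plots were drawn with matplotlib 3.10.9.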

Additional observations from a re-analysis of the deposited data

Results flagged for a closer look

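In 4 of 63 tested sets of 7 Sophophora lines, 1 line lay far from the other 6, and chance gives about 1 in 20. For smt3 D. willistoni averaged 9.185 on the log2 scale, against 10.39 to 11.05 in the others. For CG11403 D. willistoni averaged 4.047, against 4.526 to 4.758. For CG7744 D. pseudoobscura averaged 4.372, against 4.838 to 5.125. For CG12123 the eye-antennal minus brain difference of D. simulans was 0.375, against -0.326 to -0.030.

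By the interaction test, 73 genes were called in at least 1 pair of tissues. The 32 that the naming rule gave are listed here, each under 1 pair only, and some were also called in another pair. For eye-antennal minus wing disc they were CG8420 (4.15), chp (3.90), Cyp18a1 (2.89), CG15239 (2.26), Gp93 (0.76), Adam (0.75), Surf4 (0.63), CG12123 (-5.07) and CG34247 (-6.66). For eye-antennal disc minus brain they were CG3699 (3.41), PGRP-SA (2.60), CG13627 (2.45), TbCMF46 (1.61), CG17919 (1.59), Act42A (-1.19), Dys (-1.28), CG34347 (-1.72), ome (-1.98) and CG9331 (-3.29). For wing disc minus brain they were Hsp67Bc (4.57), CG30148 (4.47), CG4398 (4.15), CG14787 (4.05), CG9413 (3.71), Tsp42Ek (3.65), CG8248 (2.62), CG7227 (2.55), l(3)neo38 (-1.68), alphaTub67C (-1.79), CG18547 (-1.79), CG10581 (-2.34) and Pkg21D (-2.89).

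For CG12123, which the signal table listed at 0 in both eye-antennal libraries of the subgenus Drosophila, the count files held 100 reads in D. mojavensis and 281 in D. virilis.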

How the results depend on the processing

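No named gene reversed its direction: over all alternatives, 1143 values stayed on their side of the threshold and 494 lost their call. For CG12123 this could not show a reversal, since each setting that held the gene kept a listed 0. At the values its reads correspond to, 40.3 in D. mojavensis and 43.0 in D. virilis, the eye-antennal disc was above wing disc and brain. Wing disc was at 28.9 and 38.2 in the 2 species, and brain at 39.3 and 29.6. Counts are given in the order level, eye-antennal minus wing disc, eye-antennal disc minus brain, wing disc minus brain, any tissue, and then eye-antennal disc, wing disc and brain alone; the reported counts were 56, 9, 50, 28, 58, 295, 186 and 73. Leaving out 1 line at a time gave 37 to 69, 3 to 576, 8 to 927, 13 to 52, 10 to 831, 118 to 527, 99 to 254 and 38 to 131. Without both D. melanogaster strains, which share a species, the counts were 21, 1, 3, 4, 6, 86, 66 and 31. With the 2 strains averaged, eye-antennal disc minus brain gave 22, any tissue 20, and the tissues alone 158, 102 and 44.

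Without the replicate block of line the 4 interaction counts were 1, 2, 2 and 3, so the paired fit by line made most interaction calls. For the level, 27 libraries taken as independent gave 1691 calls, line as a random replicate block gave 214, and brain libraries alone gave 20. Without the D. virilis eye-antennal library the interaction counts were 14, 7, 43 and 36, and without that of D. mojavensis 797, 916, 43 and 898. Within the eye-antennal disc the counts were 139 and 673. Without the D. mojavensis eye-antennal and D. virilis wing libraries, in which an earlier analysis of these data saw transcripts of another tissue, the interaction counts were 514, 920, 52 and 805.

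A pseudocount of 5 gave 86 calls for eye-antennal disc minus brain and 91 for any tissue. No filter gave 89 for the level and 146 in brain, and a filter at 5 gave 34 for the level. Quantile normalization gave 5 for eye-antennal minus wing disc, 44 for wing disc minus brain and 145 in brain. Genes above 0 in every library gave 18 for the level, 103 in wing disc and 37 in brain. Genes with length within 10% in the 7 species other than D. melanogaster, of which 2803 were tested, gave 5, 1, 28, 6, 15, 77, 36 and 5. Genes with recovered reads gave 21 for the level and 5 for eye-antennal minus wing disc with limma, and 18 for the level and 21 for eye-antennal disc minus brain with edgeR. The cause of these shifts was not tested. The settings on single eye-antennal libraries, genes above 0, gene length and recovered reads were chosen after seeing the data. With 2 lines in the subgenus Drosophila and shallow D. mojavensis libraries, low genes were measured with few reads.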
